A study of Mus musculus with 47 samples.

Results

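Cdh1, Epcam, Cldn3, Cldn4, Cldn6, Cldn7, Ocln, Dsp, Esrp1 and Grhl2 encode proteins that join epithelial cells to each other and regulators that keep cells epithelial. They were taken as the rows of the authors' deposited table of RPKM, a read count divided by gene length and by library size, that carry these symbols, which gave 10 of 22632 genes. mRNA had been sequenced in 47 mouse libraries from clones of reprogramming cells, which were derived from secondary mouse embryonic fibroblasts (fibroblasts that reprogram when doxycycline is added). The titles put 4 clones in a class called SC and 4 in a class called SI, names that the labels do not spell out. Clones of both classes were sampled with 14 days of doxycycline (d14), with 21 days (d21), with 21 days followed by 1 day without it (d22) or 2 days without it (d23), and with 27 days (d27). The 4 SC clones were also sampled as iPS cells, after 21 days with the drug and 6 days without it. Each of these 11 groups of clones held n = 4 libraries. Feeder mouse embryonic fibroblasts, kept without the drug, gave 3 libraries. The labels name neither the reprogramming factors, nor the promoter that drives them, nor the strain.

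E-cadherin (Cdh1) binds neighbouring cells together at adherens junctions, claudins and occludin seal the space between cells at tight junctions, and desmoplakin (Dsp) ties desmosomes to the keratin skeleton. Grhl2 is a transcription factor that activates genes of this kind in mouse epithelia, and Esrp1 is an RNA-binding protein that sets the epithelial splicing pattern of many transcripts. Fibroblasts lack these proteins, and gain of E-cadherin during a mesenchymal-to-epithelial transition is a known early step of reprogramming from fibroblasts.

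The table holds no read totals. In 42 libraries the values of genes of at most 600 bases fell on regular steps, and a step of 1 read corresponds to 31.4 to 98.1 megareads, or to a whole multiple of that if the step was more than 1 read. Markers bore out the labelled cell types. Summed over 10 fibroblast markers, feeders measured 4897 to 5446 RPKM, and summed over 8 pluripotency markers, iPS cells measured 644 to 1061 RPKM against 0.12 to 0.28 RPKM in feeders. A pair of clones stood apart. Clone 3 of SI (SI3) had the highest fibroblast sum of its class at d21, d22 and d23 (2442, 5410 and 6211 RPKM), where the other SI clones lay at 1046 to 1111, 2160 to 2278 and 3389 to 4234 RPKM. Clone 2 of SC (SC2) had the lowest pluripotency sum of its class at d21, d22, d23, d27 and as iPS cells. The RNA came from bulk cultures, so fewer cells of a type and less RNA per cell cannot be told apart.

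All 10 genes were at or near 0 in feeders and were read in every clone library. The highest feeder value of any of them was 0.25 RPKM, for Dsp, and Esrp1 was listed at 0 in all 3 feeder libraries. The lowest value in any of the 44 clone libraries was 0.13 RPKM, for Grhl2 in SI3 at d23, and the lowest for the other genes ran up to 4.45 RPKM for Cdh1. For every gene the lowest clone value was above the highest feeder value. The mean of log2(RPKM + 1) over the 10 genes was 3.46 to 4.57 in the SC clones and 2.85 to 4.91 in the SI clones at d14, against 0.07 to 0.12 in feeders. At d14 Dsp had the highest mean per length in either class and Cldn3 the lowest.

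**Figure D1:**
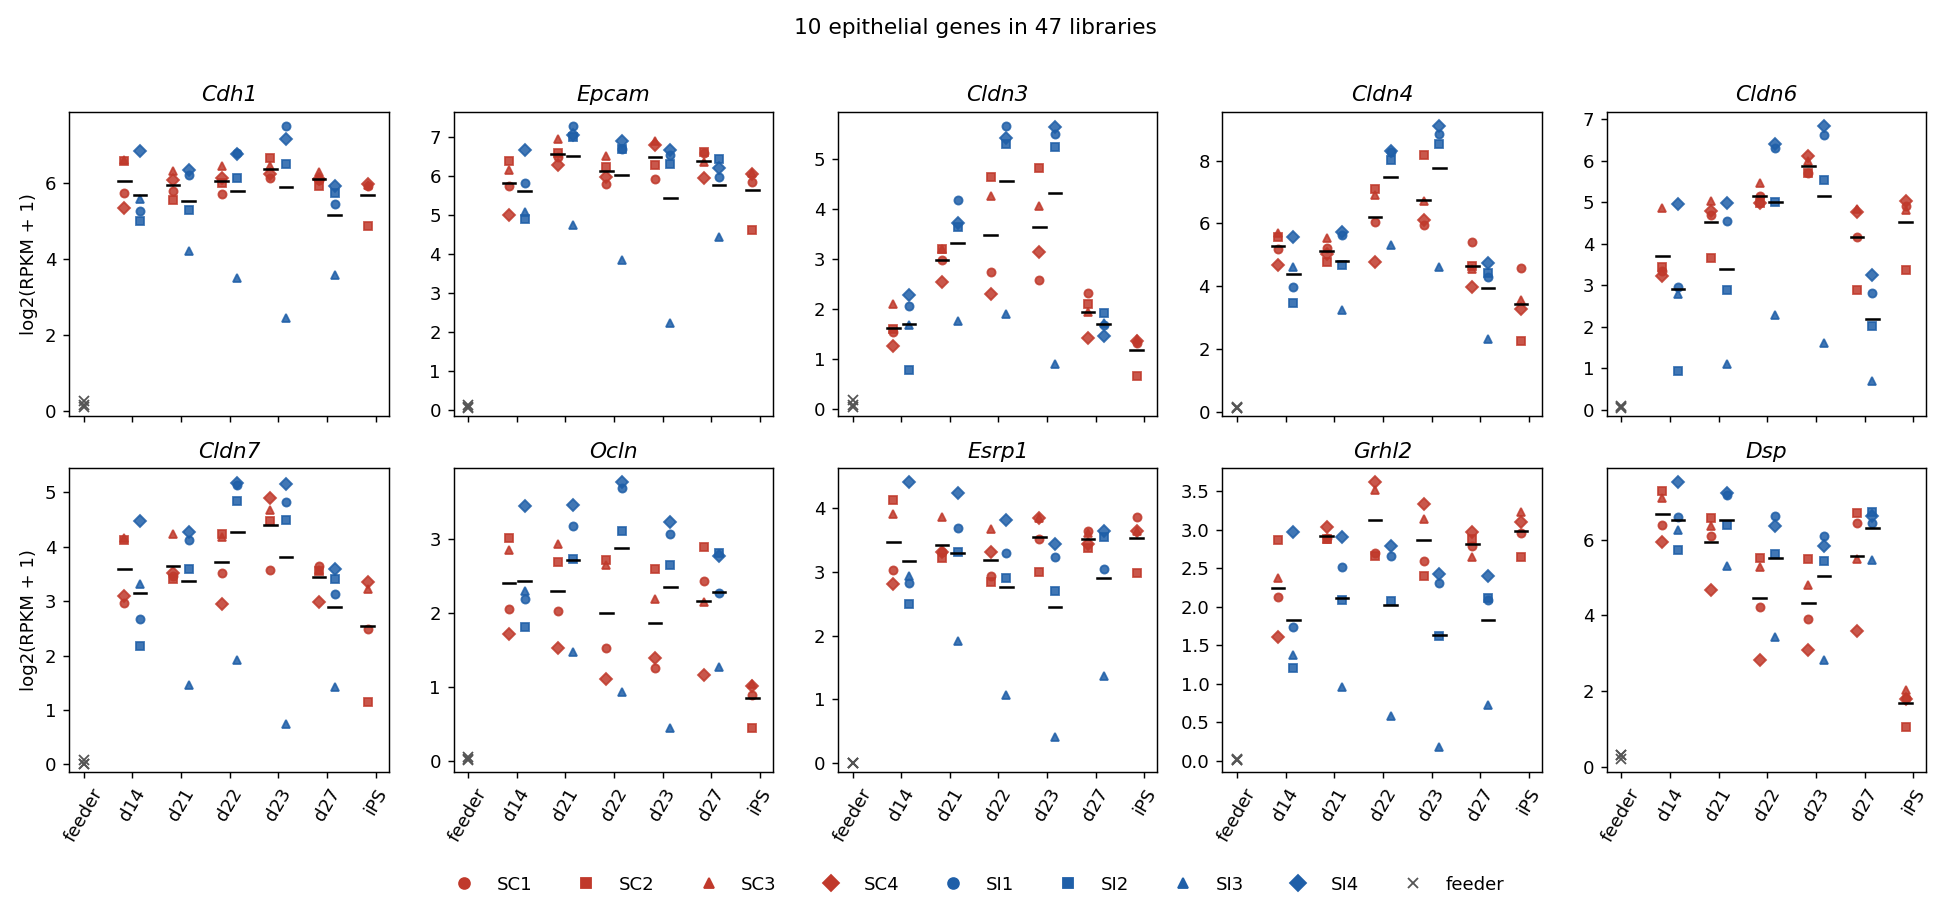
Level of each of the 10 genes as log2(RPKM + 1) in 3 feeder libraries, 24 SC libraries and 20 SI libraries, by day of sampling, with 1 point per library and a bar at the mean of each group. Feeders lie near 0 in every panel, and SI3 (blue triangles) lies below the other SI clones for all 10 genes at d23.

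At d14 the clones differed widely within each class, and no gene of the 10 differed between the classes past the threshold. Cdh1 measured 51.7, 94.5, 95.5 and 39.2 RPKM in SC clones 1 to 4 and 37.4, 30.7, 46.4 and 113.6 RPKM in SI clones 1 to 4. Dsp measured 82.9, 155.6, 135.9 and 59.7 RPKM in the SC clones and 95.1, 52.3, 74.9 and 181.8 RPKM in the SI clones. The classes overlapped for both genes. All 10 genes were far above feeders in each class. Cdh1 measured 0.18, 0.07 and 0.10 RPKM in feeders, and Dsp 0.25, 0.23 and 0.16 RPKM. A gene near 0 in feeders passes the filter on low values through the clones alone, so no test of the 10 genes against feeders is given. Of all genes tested, 65.8% were called in SC and 44.1% in SI against the same 3 feeders.

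Between 14 and 21 days with doxycycline, Cldn3 and Grhl2 rose in the SC clones. Cldn3, a claudin of simple epithelia, measured 6.91, 8.18, 8.13 and 4.81 RPKM at d21 against 1.89, 2.03, 3.27 and 1.4 RPKM at d14. Every d21 library lay above every d14 library, and the rise was 1.36 ± 0.20 (log2 difference ± SE, limma, adjusted p = 0.00107). Grhl2 measured 6.43, 6.38, 6.32 and 7.17 RPKM at d21 against 3.35, 6.29, 4.16 and 2.05 RPKM at d14. It stood 0.68 ± 0.23 higher (limma, adjusted p = 0.0373), in all 4 clones, with clone 2 hardly moved. The call for Grhl2 was lost without clone 1, 3 or 4 (adjusted p = 0.150, 0.104 and 0.107), and that for Cldn3 held without each clone. In a fit that shares the spread of all 12 groups neither was called (adjusted p = 0.120 for Cldn3 and 0.208 for Grhl2), and without the filter on low values Grhl2 was not (adjusted p = 0.0659). These were 2 of 10 genes, where 42.5% of all genes were called. The fibroblast sum was 1101 to 1279 RPKM in SC at d21 and 2050 to 3919 RPKM at d14, and the pluripotency sum 62.6 to 720 RPKM at d21 and 31.7 to 55.1 RPKM at d14. Their part in the result was not tested.

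The clone names in the labels pair the times within a class, so a fit with the clone as a block was made beside each. In it 5 of the 10 genes were called at d21 in SC, where 46.1% of all genes were. Epcam, an adhesion protein that binds claudin 7, rose by 0.76 ± 0.17 (limma with clone block, adjusted p = 0.0123), at 88.2, 94.2, 122.2 and 75.9 RPKM against 52.3, 81.3, 70.1 and 30.6 RPKM at d14. Cldn6, the claudin of early embryonic epithelia, rose by 0.82 ± 0.26 (adjusted p = 0.0381), at 24.7, 11.6, 31.5 and 26.5 RPKM against 9.15, 9.77, 27.9 and 8.40 RPKM at d14. Dsp fell by 0.75 on the log2 scale (SE 0.16, adjusted p = 0.00941), in all 4 clones. Without the block these 3 had adjusted p of 0.0546, 0.125 and 0.191. Cdh1 differed by -0.13 ± 0.30 and was higher in 2 of 4 clones.

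In the SI clones none of the 10 genes was called between d14 and d21, where 0.0% of all genes were without the block and 0.0767% with it. At an unadjusted p under 0.05 limma gave 1 of the 10 genes and 2313 of 11738 genes. The clones moved apart. All 10 genes were higher at d21 in SI1 and in SI2, 5 of 10 were higher in SI4 and 1 of 10 in SI3. Cldn3 was higher at d21 in all 4, at 17.2, 11.5, 2.38 and 12.2 RPKM against 3.14, 0.71, 2.18 and 3.87 RPKM at d14. It differed by 1.63 ± 0.53 (limma, adjusted p = 0.246). Without SI3 and without the block, Cldn3 was called (2.15, limma, adjusted p = 0.0471), 1 of the 10 genes where 2.51% of all genes were called. With the block and without SI3, Cldn3 was not called (2.15, limma, adjusted p = 0.0714). The d21 against d14 change was not shown to differ between SC and SI for any of the 10 genes, with or without the block, and 0.0% of all genes passed that test in either fit. At an unadjusted p under 0.05 it gave 0 of the 10 genes and 465 of 12325 genes in limma without the block.

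After doxycycline was withdrawn Cldn4 and Cldn6 were higher, and Dsp lower, at d23 than at d21 in all 8 clones. Cldn4, a claudin of many simple epithelia, had the largest log2 difference of the 10 genes at d22 and d23 in SI. In SI clones 1 to 4 it measured 48.3, 24.4, 8.32 and 52.1 RPKM at d21, then 307.8, 258.4, 38.8 and 316.3 RPKM at d22 and 458.3, 371.6, 23.6 and 544.2 RPKM at d23. It was higher than at d21 in all 4 clones at both times, by 4.66 to 10.6 times at d22 and by 2.84 to 15.2 times at d23. In RPKM the libraries of d22 and d23 overlapped those of d21 only through SI3. Cldn4 rose by 2.67 ± 0.77 at d22 (limma, adjusted p = 0.0258) and by 2.96 ± 1.00 at d23 (limma, adjusted p = 0.0324). It was 1 of 10 genes called at each time, where 37.9% and 54.6% of all genes were. The calls were lost without SI1, SI2 or SI4, at adjusted p of 0.0830 to 0.143 at d22 and 0.0975 to 0.154 at d23, and held without SI3. Without the filter on low values the d23 call was lost too (adjusted p = 0.0546).

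Cldn3 and Cldn6 were higher at d22 than at d21 in all 4 SI clones. Cldn3 measured 49.5, 38.6, 2.70 and 42.0 RPKM at d22, against 17.2, 11.5, 2.38 and 12.2 RPKM at d21. Cldn6 measured 78.4, 31.2, 3.86 and 83.8 RPKM at d22, against 22.4, 6.46, 1.15 and 30.4 RPKM at d21. SI3 was the lowest of its group for both genes at both times, yet Cldn6 was 2.76 to 4.83 times higher at d22 in all 4 clones. With the clone as a block, 7 of the 10 genes were called at d22, where 57.2% of all genes were. Cldn4 rose by 2.67 ± 0.20 (limma with clone block, adjusted p = 0.000329), Cldn6 by 1.62 ± 0.16 (adjusted p = 0.000628), Cldn3 by 1.24 ± 0.28 (adjusted p = 0.0109) and Cldn7 by 0.90 ± 0.14 (adjusted p = 0.00255). Dsp, Epcam and Esrp1 fell. At d23 Cldn3 measured 44.1, 36.8, 0.87 and 48.8 RPKM, lower than at d21 in SI3 and higher in the other clones, and it was not called with the block (0.99 ± 0.37, adjusted p = 0.0918). At that time 6 of 10 were called with the block, where 63.4% of all genes were. Cldn4 and Cldn6 rose, Cldn6 by 1.77 ± 0.32 (adjusted p = 0.00380), and Dsp, Epcam, Esrp1 and Grhl2 fell.

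In the SC clones Cldn6 was called at d23 and Cldn4 was not. Cldn4 measured 36.0, 26.1, 45.8 and 31.2 RPKM at d21, then 64.2, 137.0, 118.7 and 26.0 RPKM at d22 and 60.5, 285.6, 104.8 and 68.2 RPKM at d23. It was higher than at d21 in 3 of 4 clones at d22 and in 4 of 4 at d23, and SC2 was the highest at both times. Its change at d23 was 1.60 ± 0.45 (limma, adjusted p = 0.0916), and 1.60 ± 0.44 with the clone block (adjusted p = 0.0675). Cldn6 rose by 1.34 ± 0.28 at d23 (limma, adjusted p = 0.0401), at 51.0, 51.5, 62.7 and 67.9 RPKM against 24.7, 11.6, 31.5 and 26.5 RPKM at d21, with no overlap. It was the 1 gene of 10 called at d23, where 3.79% of all genes were, and the call was lost without SC1, SC3 or SC4 (adjusted p = 0.239, 0.179 and 0.0826), without the filter (0.0602) and with the spread of all 12 groups (0.316). At d22 none of the 10 was called without the block, where 8.17% of all genes were and where limma gave 1 of 10 at an unadjusted p under 0.05. With the block 3 of 10 were called at d22, against 37.3% of all genes, and 2 of 10 at d23, against 13.4%. Cldn6 rose at both times, Dsp fell at both, and Epcam fell at d22.

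The level of Cldn4 was also read against that of Cdh1 in the same library. In the SI clones the ratio of their RPKM was 0.66, 0.64, 0.48 and 0.65 at d21, then 2.84, 3.80, 3.77 and 2.95 at d22 and 2.57, 4.16, 5.31 and 3.83 at d23, and 0.44, 0.40, 0.37 and 0.43 at d27 with the drug kept on. The ratio of SI3 rose as well, although its Cldn4 level was the lowest. Cdh1 fell in SI3 from 17.4 RPKM at d21 to 10.3 RPKM at d22 and 4.45 RPKM at d23. In the other SI clones Cdh1 was higher at d22 and d23 than at d21. In the SC clones the ratio was 0.67, 0.57, 0.59 and 0.47 at d21, then 1.26, 2.20, 1.39 and 0.38 at d22 and 0.87, 2.86, 1.22 and 0.92 at d23. The classes did not overlap at d22 and overlapped at d23 through SC2. The fibroblast sum of SC2 at d23 was 3257 RPKM, against 800 to 1793 RPKM in the other SC clones. Its part in the SC2 values was not tested. The ratio was picked out after its values were seen, and no test was made of it.

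**Figure D2:**
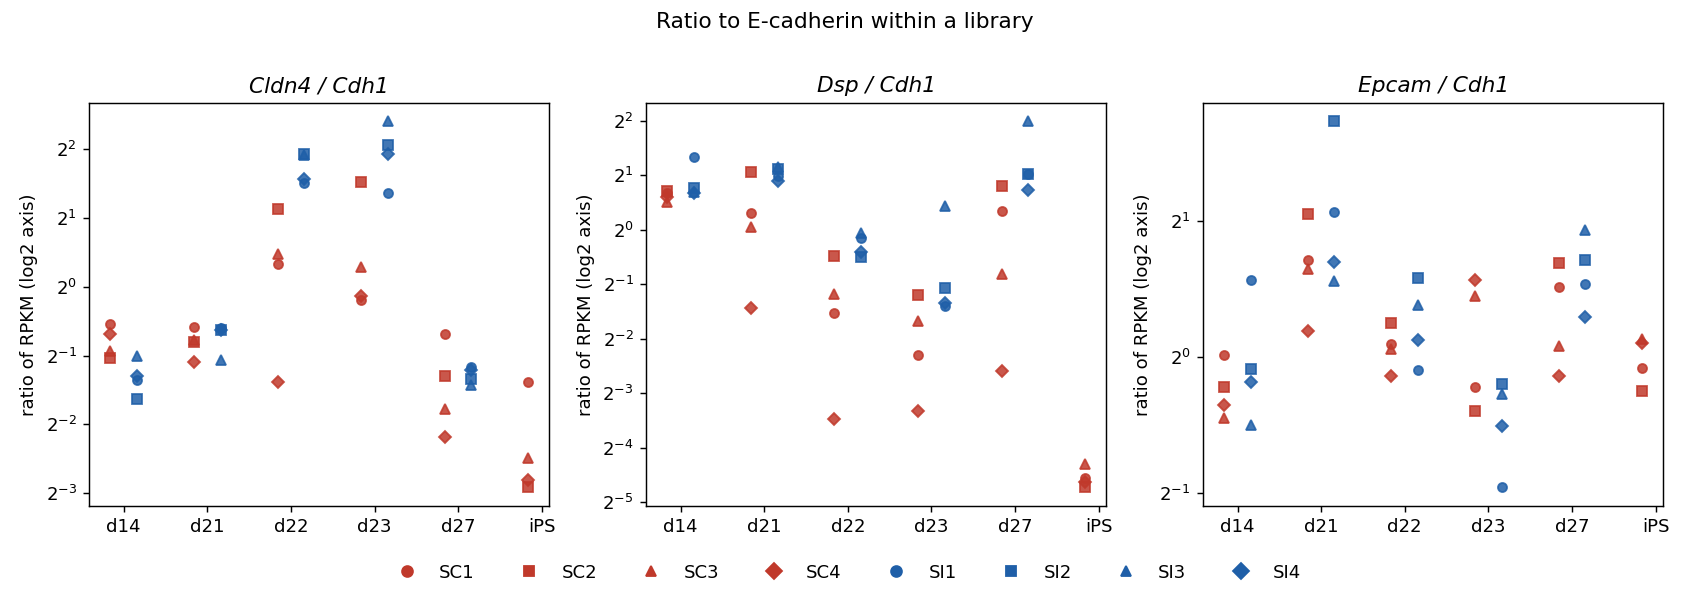
RPKM of Cldn4, Dsp and Epcam divided by that of Cdh1 in the same library, on a log2 axis, with 1 point per clone and day. The Cldn4 ratio of every SI clone lies at 2.57 to 5.31 at d23 and at 0.48 to 0.66 at d21, and the Dsp ratio of the iPS cells lies at 0.04 to 0.05.

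Simple-epithelium keratins were higher beside Cldn4, while other epithelial markers went either way. The summed level of 4 simple-epithelium keratins (Krt7, Krt8, Krt18 and Krt19) was 1572, 969, 89.2 and 1280 RPKM in the SI clones at d23, against 129, 78.0, 16.4 and 119 RPKM at d21. In the SC clones it was 307, 879, 334 and 148 RPKM at d23, against 82.4, 97.8, 80.4 and 54.4 RPKM at d21. All 4 keratins averaged at least 1 RPKM in both classes at d23. The sum over 8 keratinocyte markers was 292, 345, 24.1 and 409 RPKM in SI at d23 against 119, 75.6, 58.1 and 256 RPKM at d21, lower in SI3 alone. In SC it was 51.6, 250, 45.5 and 22.2 RPKM at d23 against 129, 93.4, 112 and 66.9 RPKM at d21, higher in SC2 alone. The sum over 6 trophoblast markers was lower at d23 in all 4 SI clones (1.02 to 11.6 RPKM against 5.59 to 16.5 RPKM at d21) and higher in all 4 SC clones (11.95 to 20.5 RPKM against 8.86 to 13.96 RPKM at d21). The part of these cells in the claudin values was not tested. Krt8 was also the gene most like Cldn4 over the 47 libraries (Pearson r = 0.95).

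**Figure D3:**
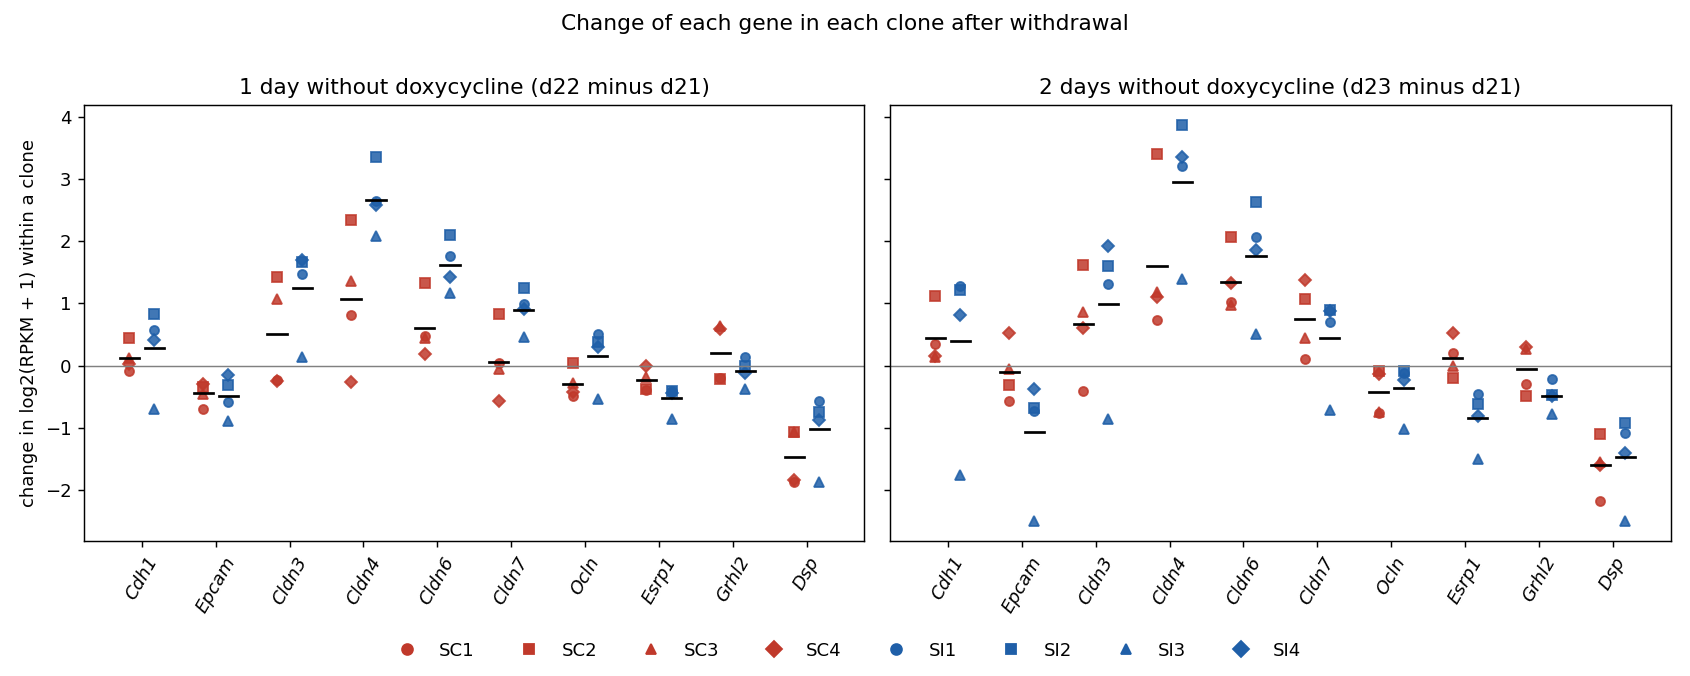
Change in log2(RPKM + 1) within each clone for d22 minus d21 and for d23 minus d21, with 1 point per clone (red SC, blue SI) and a bar at the mean of 4 clones. Cldn4 is above 0 in all 8 clones at d23, Dsp is below 0 in all 8 at both times, and SI3 has the lowest SI value of every gene at d23.

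Cldn3 and Cldn4 are next to each other on mouse chromosome 5 in the RefSeq table, and Cldn6 lies beside Cldn9 on chromosome 17. The 250 bases before the annotated start of these 3 claudins and of Dsp are shown so that the promoters of the 4 genes with the largest log2 differences in SI at d22 can be read beside their values. Sequences are from RefSeq, build GRCm38.p6, at chr5:134985964-134986213 on the plus strand for Cldn3, chr5:134946935-134947184 on the minus strand for Cldn4, chr17:23679115-23679364 on the plus strand for Cldn6 and chr13:38151044-38151293 on the plus strand for Dsp. Capitals mark CACCTG or its complement CAGGTG, the E-box bound by Snai and Zeb repressors, and TGANTCA, the site of AP-1 factors.
Cldn3: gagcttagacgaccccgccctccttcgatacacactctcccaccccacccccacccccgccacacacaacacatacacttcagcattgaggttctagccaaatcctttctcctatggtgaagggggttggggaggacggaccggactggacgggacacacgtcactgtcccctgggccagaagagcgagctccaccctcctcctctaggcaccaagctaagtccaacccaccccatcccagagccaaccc
Cldn4: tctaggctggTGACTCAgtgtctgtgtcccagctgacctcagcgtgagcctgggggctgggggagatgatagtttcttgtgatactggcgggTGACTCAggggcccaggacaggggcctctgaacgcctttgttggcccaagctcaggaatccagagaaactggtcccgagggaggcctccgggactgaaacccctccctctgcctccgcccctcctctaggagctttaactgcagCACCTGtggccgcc
Cldn6: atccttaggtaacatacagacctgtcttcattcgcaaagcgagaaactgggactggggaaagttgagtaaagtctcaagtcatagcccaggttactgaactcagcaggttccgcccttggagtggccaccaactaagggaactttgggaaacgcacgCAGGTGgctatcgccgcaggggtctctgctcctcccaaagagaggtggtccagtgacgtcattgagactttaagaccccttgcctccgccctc
Dsp: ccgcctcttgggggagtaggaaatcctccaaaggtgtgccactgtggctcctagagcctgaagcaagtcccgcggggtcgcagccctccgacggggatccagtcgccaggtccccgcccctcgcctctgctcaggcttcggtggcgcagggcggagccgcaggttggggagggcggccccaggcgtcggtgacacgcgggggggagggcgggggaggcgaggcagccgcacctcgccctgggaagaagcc

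Windows were found for 7 of the 10 genes (9 windows): Cldn3, Cldn4, Cldn6, Cldn7, Dsp, Epcam and Ocln. Searched on both strands, the E-box was in 17.2% of all 32851 windows of this length and in 5 of these 9. They were windows of Cldn4, Cldn6, Cldn7, Epcam and Ocln, and Cldn7 and Ocln each had another window without it. TGANTCA was in 6.75% of all windows and, among these genes, in Cldn4 alone, at 240 and 158 bases before the start, beside an E-box at 14 bases before it. No marked motif overlaps another. The grainyhead motif AACCNGTT was in 1.79% of all windows and in none of the 9, and the GC box GGGCGG in 32.7% of all windows and in 1 or more windows of all 7 genes. The Dsp and Cldn3 windows hold neither of the motifs in capitals.

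With all clones in, Cldn7 was called in SI at d22 with the clone block and not without it (adjusted p = 0.419), and Ocln was called in neither fit. Cldn7, the claudin found with EpCAM on the sides of epithelial cells, measured 34.0, 27.7, 2.77 and 35.3 RPKM in the SI clones at d22 against 16.6, 11.1, 1.75 and 18.4 RPKM at d21, higher in all 4. In the SC clones it measured 10.4, 17.8, 17.1 and 6.72 RPKM at d22 against 10.1, 9.59, 17.8 and 10.4 RPKM at d21, higher in 2 of 4. At d23 Cldn7 measured 10.9, 21.4, 24.6 and 28.8 RPKM in SC, higher than at d21 in all 4 clones by 1.08 to 2.77 times, and 27.4, 21.6, 0.68 and 34.6 RPKM in SI, higher in 3 of 4 and lower in SI3. It was not called at d23 in either class, with the block (adjusted p = 0.0814 in SC and 0.210 in SI) or without it (0.221 and 0.729). Ocln, the tight junction protein occludin, was the lowest of the 10 in mean level in SC at d21, d22 and d23. With all clones in, it was not called in any comparison between times, with or without the block. It was called in some fits that left out a clone. With the block and without SI3 it rose by 0.39 in SI at d22 (limma, adjusted p = 0.00197). Without SC4 it fell by 1.70 in iPS cells against d27 (limma, adjusted p = 0.00868). At d23 it measured 1.4, 5.03, 3.54 and 1.63 RPKM in SC, where clones 1 and 4 lay below the others, and 7.34, 5.26, 0.37 and 8.37 RPKM in SI.

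Dsp was lower after withdrawal in every clone of either class. In the SC clones it measured 67.1, 94.8, 81.0 and 24.6 RPKM at d21, then 17.7, 44.6, 38.0 and 6.12 RPKM at d22 and 14.1, 43.6, 27.1 and 7.47 RPKM at d23. In the SI clones it measured 144.5, 82.1, 38.6 and 150.4 RPKM at d21, then 97.4, 48.4, 9.84 and 81.3 RPKM at d22 and 67.6, 42.7, 6.03 and 56.3 RPKM at d23. The clones kept a wide spread, with SC4 lowest in SC and SI3 lowest in SI at each of these times. With all clones in, limma called it at d22 and d23 with the clone block and not without it. At d22 Dsp fell by 1.46 in SC (SE 0.17, limma with clone block, adjusted p = 0.00273) and by 1.02 in SI (SE 0.22, adjusted p = 0.00968). At d23 it fell by 1.60 in SC (SE 0.18, adjusted p = 0.00794) and by 1.48 in SI (SE 0.26, adjusted p = 0.00313). Without the block the adjusted p ran from 0.115 to 0.278. In SI the fall at d23 was 1.14 on the log2 scale without SI3, where limma called it with the block (adjusted p = 5.23e-05) and without it (adjusted p = 0.00388).

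Some desmosome genes fell after withdrawal as Dsp did, and Pkp2 rose in SI. Of 9 desmosome genes on a list, 8 were tested at d23 against d21. In SC 1 fell and none rose (median log2 difference -0.65, and -0.07 over all genes tested), and in SI 2 fell and 1 rose (median 0.08, and -0.12 over all genes). Of all genes, 3.79% were called in SC and 54.6% in SI. With the clone block 4 fell and 1 rose in SC, where 13.4% of all genes were called, and 3 fell and 3 rose in SI, where 63.4% were. Pkp1, plakophilin 1 of stratified epithelia, fell by 2.92 in SC (SE 0.53, limma, adjusted p = 0.0246), with mean levels of 1.01 RPKM at d23 and 13.6 RPKM at d21. In SI Pkp1 fell by 3.07 (SE 0.70, adjusted p = 0.00606), with means of 3.08 RPKM at d23 and 37.3 RPKM at d21. Pkp2, the plakophilin of simple epithelia and heart, rose by 1.33 ± 0.21 in SI (adjusted p = 0.00114), at a mean of 8.33 RPKM against 2.71 RPKM. Perp, a desmosome membrane protein, fell by 1.86 in SC (SE 0.23, limma with clone block, adjusted p = 0.00968) and by 1.51 in SI (SE 0.16, adjusted p = 0.000469). Perp was the gene most like Dsp over the 47 libraries (r = 0.97), followed by Dsc2 (r = 0.96), a desmosomal cadherin.

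Cdh1 and Epcam, which mark epithelial cells at the surface, went opposite ways in SI1, SI2 and SI4 at d23. In the SI clones Cdh1 measured 72.9, 37.9, 17.4 and 80.3 RPKM at d21, then 108.6, 68.0, 10.3 and 107.2 RPKM at d22 and 178.0, 89.3, 4.45 and 142.1 RPKM at d23. Epcam measured 152.4, 125.8, 25.6 and 130.3 RPKM at d21, then 101.7, 101.6, 13.4 and 116.8 RPKM at d22 and 91.6, 77.9, 3.69 and 99.9 RPKM at d23. Cdh1 was higher at d23 in SI1, SI2 and SI4 and lower in SI3, whereas Epcam was lower in all 4. With the clone block Epcam fell by 0.48 at d22 (SE 0.13, limma, adjusted p = 0.0227) and by 1.07 at d23 (SE 0.34, adjusted p = 0.0330), and Cdh1 was called at neither time. Without SI3, Cdh1 rose by 1.10 at d23 (limma, adjusted p = 0.0149) and Epcam fell by 0.60 (adjusted p = 0.00344). The level of Epcam over that of Cdh1 was 0.51 to 0.87 in the SI clones at d23, against 1.47 to 3.32 at d21, with no overlap.

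In the SC clones Cdh1 stayed between 45.6 and 99.8 RPKM from d21 to d27 in all 16 libraries. It measured 69.2, 99.8, 86.3 and 74.5 RPKM at d23 against 53.9, 45.6, 77.9 and 66.5 RPKM at d21, higher in all 4 clones. The difference was 0.44 ± 0.20 (limma, adjusted p = 0.265, and 0.175 with the clone block). Epcam was lower at d22 in all 4 clones, at 54.2, 74.2, 89.0 and 61.9 RPKM. With the block it fell by 0.44 there (SE 0.09, adjusted p = 0.0134). At d23 it measured 59.3, 75.8, 117.6 and 110.1 RPKM, lower than at d21 in 3 of 4 clones.

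Grhl2 and Esrp1, the regulators among the 10, were lower in every SI clone at d23 than at d21, and went either way among the SC clones. Esrp1 measured 10.5, 7.03, 13.5 and 13.4 RPKM in the SC clones at d23 and 8.98, 8.27, 13.5 and 8.97 RPKM at d21. In the SI clones it measured 8.45, 5.48, 0.33 and 9.81 RPKM at d23 and 11.95, 8.93, 2.79 and 18.0 RPKM at d21, lower in all 4. With the clone block Esrp1 fell by 0.85 in SI (SE 0.18, limma, adjusted p = 0.00733), and its difference in SC was 0.13 ± 0.14 (adjusted p = 0.579). The change itself differed between the classes in that fit, by 0.98 ± 0.25 for SC minus SI (limma with clone block, adjusted p = 0.0339), and by 0.76 without SI3 (adjusted p = 0.0396). It was the 1 gene of 10 so called, where 23.2% of all genes were. With the block and without SI3 the change of Cldn4 also differed, by -1.88 for SC minus SI (adjusted p = 0.0489), which made 2 of 10 where 25.0% of all genes were called. Without the block no gene passed this test (0.0% of all genes) and Esrp1 had an adjusted p of 0.430, and at an unadjusted p under 0.05 limma gave 0 of the 10 and 3237 of 12714 genes.

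Grhl2 measured 5.05, 4.26, 7.81 and 9.06 RPKM in the SC clones at d23, against 3.95, 2.07, 0.13 and 4.37 RPKM in the SI clones. SC2 lay below the highest SI clone, so the classes overlapped. In SI the d21 values were 4.73, 3.24, 0.94 and 6.5 RPKM, above d23 in each clone, and with the clone block Grhl2 fell by 0.48 (SE 0.12, limma, adjusted p = 0.0116). In SC the d23 against d21 difference was -0.05 ± 0.17 in the same kind of fit (limma with clone block, adjusted p = 0.856). At d23 SC minus SI was 1.23 ± 0.48 (limma, adjusted p = 0.0631). It passed the threshold without SC2 (adjusted p = 0.0443) and in a fit that shares the spread of all 12 groups (adjusted p = 0.0149). Without SI3 the difference was smaller, at 0.75, and was not called (limma, adjusted p = 0.0786).

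The other grainyhead genes fell in SC at d23, where Grhl2 did not pass the test, and the difference between them was not tested. Of 9 epithelial regulators on a list, 8 were tested in SC at d23 against d21. None rose and 4 fell (median -0.93, and -0.07 over all genes), where 3.79% of all genes were called. Grhl3, the grainyhead factor of the skin barrier, fell by 1.85 in SC (SE 0.27, limma, adjusted p = 0.0101), at a mean of 5.59 RPKM against 23.6 RPKM at d21. Grhl1 fell by 1.12 (SE 0.15, adjusted p = 0.00774). In SI 6 were tested, of which 3 fell and 1 rose (median -1.33, and -0.12 over all genes), where 54.6% of all genes were called. With the clone block 5 fell and 2 rose in SC, where 13.4% of all genes were called. In SI the block gave 4 that fell and 1 that rose, where 63.4% of all genes were called. In SI without the block Ehf, an Ets factor of epithelia, fell by 3.03 (SE 0.57, limma, adjusted p = 0.00245). There Klf5, a factor of the early embryo and of simple epithelia, rose by 1.71 ± 0.33 (limma, adjusted p = 0.00280).

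SI3 was the lowest SI clone for all 10 genes at d21, d22 and d23. Their mean of log2(RPKM + 1) in SI3 was 3.59 at d14, 2.61 at d21, 2.48 at d22 and 1.64 at d23, and 2.30 at d27 with the drug kept on. At d14 it lay within the range of the other SI clones (2.85 to 4.91), and at d23 it lay below their range of 4.90 to 5.55. Its Cdh1 at d23 was 4.45 RPKM where the other SI clones had 89.3 to 178.0 RPKM, and its Grhl2 was 0.13 RPKM where they had 2.07 to 4.37 RPKM. The fibroblast sum of SI3 was the highest of any library at d23, feeders included. Its sum of 8 genes of mesenchymal cells (the Zeb, Snai and Twist repressors, Cdh2 and Vim) was 1326 RPKM at d23. The other SI clones had 834 to 1079 RPKM at d23, and feeders 1469 to 1569 RPKM. Vim made up most of this sum in SI at d23, so the sum does not show the level of the repressors. Without SI3, 7 of 10 genes were called in SI at d23 against d21 in the fit without the block, where 66.2% of all genes were. Cdh1, Cldn3, Cldn4, Cldn6 and Cldn7 rose, and Dsp and Epcam fell. At d22, 5 of 10 were called without SI3, where 56.1% of all genes were. With the block and without SI3, 9 of 10 were called at d22 and at d23 and 6 at d27, where 71.4%, 72.2% and 50.3% of all genes were. The share of fibroblasts in these libraries was not tested.

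**Figure D4:**
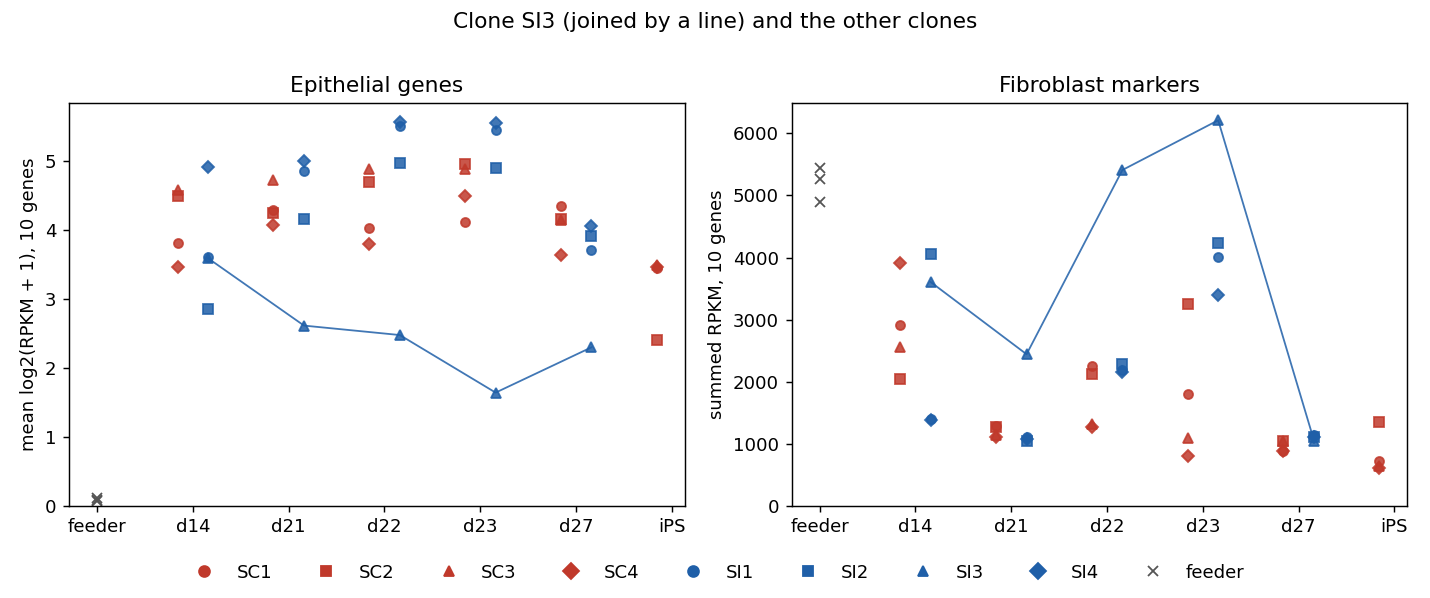
Mean of log2(RPKM + 1) over the 10 genes and summed RPKM of 10 fibroblast markers in each library, with SI3 joined by a line. SI3 has a mean of 1.64 and a fibroblast sum of 6211 RPKM at d23, while the other SI clones have means of 4.90 to 5.55 and sums of 3389 to 4234 RPKM.

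Mesenchymal genes rose in SI after withdrawal beside the claudins. At d23 against d21, 7 of the 8 listed genes rose in SI and none fell (median 1.22, and -0.12 over all genes tested), where 54.6% of all genes were called. With the clone block all 8 rose, where 63.4% of all genes were called. Of the 10 fibroblast markers 8 rose and none fell, and the sum of 5 macrophage markers was 165 to 311 RPKM at d23 and 51.2 to 117 RPKM at d21, with 166 to 179 RPKM in feeders. Their part in the values of the 10 junction and regulator genes was not tested. In SC none of the 8 was called with or without the block (median 0.08, and -0.07 over all genes), where 13.4% and 3.79% of all genes were. Twist1, a repressor of Cdh1, rose by 1.91 ± 0.41 in SI (limma, adjusted p = 0.00439), at a mean of 14.8 RPKM against 3.43 RPKM at d21. Vim, the intermediate filament of mesenchymal cells, rose by 1.19 ± 0.24 (adjusted p = 0.00345), at 901 RPKM against 403 RPKM. Between d14 and d21 all 8 fell in SC (median -1.12, and 0.06 over all genes), where 42.5% of all genes were called. Snai2 fell by 1.46 there (SE 0.16, limma, adjusted p = 0.000370).

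The remaining junction genes were tested at d23 against d21 from lists of 10 adherens junction, 15 tight junction and 8 epithelial surface genes. In SI 3 of 10 adherens junction genes rose and 1 fell, 1 of 13 tight junction genes tested rose, and 1 of 8 surface genes rose (Cdh3, which is on both lists), where 54.6% of all genes were called. In SC 1 of 10 adherens junction genes rose and 1 fell, and none of 12 tight junction or 8 surface genes was called, where 3.79% of all genes were. With the clone block, 5 adherens junction genes rose and 2 fell in SI, 3 tight junction genes rose and 4 fell, and 3 surface genes rose and 3 fell, where 63.4% of all genes were called. In SC the block gave 2 adherens junction genes that rose and 2 that fell, 1 tight junction gene that rose and 2 surface genes that rose, where 13.4% of all genes were called. Cdh3 (P-cadherin), the neighbour of Cdh1 on its chromosome, rose by 1.88 ± 0.21 in SI (limma, adjusted p = 0.000241), at a mean of 8.14 RPKM against 1.57 RPKM. Pvrl2 (nectin 2) rose by 1.06 ± 0.14 in SC (adjusted p = 0.00828) and by 1.31 ± 0.14 in SI (adjusted p = 0.000204). Cgn (cingulin), a tight junction plaque protein, rose by 1.02 ± 0.20 in SC with the clone block (adjusted p = 0.0292) and was the gene most like Cldn6 over the 47 libraries (r = 0.97).

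With doxycycline kept on to d27, Cldn4 and Cldn6 were lower than at d23 in all 8 clones. Cldn4 measured 41.4, 24.1, 22.4 and 14.8 RPKM in SC and 18.8, 20.5, 4.00 and 25.5 RPKM in SI at d27. In SI every d27 library was below the d21 library of its clone for Cldn3, Cldn4, Cldn6, Cldn7 and Epcam. None of the 10 genes was called at d27 against d21 in SC, where 0.00847% of all genes were, or in SI, where 0.0% were with or without the block. At an unadjusted p under 0.05 limma gave 1 of the 10 in each class, among 1363 of 11804 genes in SC and 3566 of 11590 genes in SI. With the block Cldn3 fell by 1.04 in SC (SE 0.11, limma, adjusted p = 0.0210), 1 of 10 genes where 11.3% of all genes were called. Without SI3, 4 of 10 were called in SI, where 46.0% of all genes were. In SC3 all 10 genes were lower at d27 than at d21, and in SC1 3 of 10 were. Cldn3 measured 4.01, 3.26, 2.81 and 1.66 RPKM in SC at d27 and 2.18, 2.78, 2.30 and 1.76 RPKM in SI. The d27 against d21 change was not shown to differ between the classes for any of the 10, with 0.0% of all genes passing in either fit.

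In iPS cells Dsp, Cldn4 and Cldn3 fell, while the values of Esrp1 and Grhl2 overlapped those of d23. Dsp measured 2.53, 1.06, 3.09 and 2.47 RPKM in iPS cells of clones 1 to 4, against 14.1, 43.6, 27.1 and 7.47 RPKM in the same clones at d23 and 85.1, 103.8, 43.9 and 11.1 RPKM at d27. It fell by 2.65 against d23 (SE 0.47, limma, adjusted p = 0.0406) and fell by 3.88 against d27 (SE 0.61, adjusted p = 0.0330). The iPS libraries lay below every d23 and d27 library. Cldn4 measured 22.7, 3.71, 10.8 and 8.72 RPKM in iPS cells, and fell by 3.32 against d23 (SE 0.58, adjusted p = 0.0370). Cldn3 measured 1.5, 0.57, 1.64 and 1.57 RPKM, and fell by 2.46 against d23 (SE 0.44, adjusted p = 0.0406). These were 3 of 10 genes against d23, where 1.4% of all genes were called, and 1 of 10 against d27, where 1.62% were. With the clone block 5 of 10 fell against d23 (16.1% of all genes), the others being Cldn6 and Cldn7, and 1 of 10 against d27 (12%).

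SC2 was the lowest iPS library for all 10 genes, and its fibroblast sum of 1357 RPKM lay above the 609 to 720 RPKM of the other iPS libraries. The part of fibroblasts in its low values was not tested. The iPS calls against d23 held without SC2 and were lost without SC1, SC3 or SC4 (adjusted p of 0.108 to 0.356), and the Dsp call against d27 was lost without SC1 or SC3 (adjusted p = 0.401 and 0.248). Without the filter on low values all 4 calls were lost, at adjusted p of 0.0607 to 0.0734. Esrp1 measured 13.6, 6.95, 11.5 and 11.5 RPKM in iPS cells, and Grhl2 6.75, 5.27, 8.35 and 7.53 RPKM. They differed from d23 by -0.02 ± 0.25 and 0.11 ± 0.23, and overlapped it. Cdh1 measured 59.2, 28.1, 60.8 and 61.0 RPKM and differed from d23 by -0.70 ± 0.26 (adjusted p = 0.173). Ocln measured 0.85, 0.36, 1.06 and 1.03 RPKM, below every SC library at d23, though it was not called with all clones in. Every iPS library lay above every feeder library for all 10 genes, and 79.9% of all genes were called between them.

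Simple-epithelium keratins and St14 were lower in iPS cells than at d23, beside Cldn3 and Cldn4, and Perp was lower than at d27. Cldn6 was below d23 as well, but not below d27 in 3 of 4 clones. The sum of the listed epithelial regulators overlapped that of d23. Cldn6 measured 28.79, 9.29, 27.18 and 31.86 RPKM in iPS cells of clones 1 to 4. It was lower than at d23 in all 4 clones and higher than at d27 in 3 of 4. Its mean was 24.28 RPKM in iPS cells and 23.55 RPKM in SC at d21. The sum of the 9 regulators was 30.04 to 66.37 RPKM in iPS cells and 48.9 to 79.27 RPKM at d23, with overlap. The sum of the 4 simple-epithelium keratins was 8.84 to 30.04 RPKM in iPS cells and 148 to 879 RPKM at d23, and all 4 fell. The part of other cell types in the iPS values was not tested. St14 (matriptase), a surface protease of epithelia, fell by 1.83 against d23 (SE 0.36, limma, adjusted p = 0.0480), at a mean of 7.05 RPKM against 27.3 RPKM. Of the desmosome genes, Perp fell by 3.47 against d27 (SE 0.51, adjusted p = 0.0285), at a mean of 6.97 RPKM against 107.5 RPKM.

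The 10 genes did not pass the test between SC and SI at any time. None was called at d14, d21, d22, d23 or d27, where 0.0%, 0.0%, 0.0%, 42.5% and 0.634% of all genes were. At an unadjusted p under 0.05 limma gave 0, 0, 1, 1 and 2 of the 10 genes at these times, and 169, 1572, 4140, 6566 and 2661 of all genes. At d23 the SI clones spanned a wider range in RPKM than the SC clones for 9 of the 10 genes, Grhl2 being the exception. SI3 lay low, and SI1 and SI4 lay high for the claudins. The SC minus SI difference of Cldn4 was -1.04 ± 0.98 at d23 and -2.09 without SI3 (limma, adjusted p = 0.394 and 0.0532). At d27 Cldn6 measured 16.8, 6.34, 27.6 and 26.0 RPKM in SC and 6.00, 3.05, 0.63 and 8.48 RPKM in SI, a difference of 1.96 ± 0.61 (limma, adjusted p = 0.141), which passed the threshold without SC2 (2.39, adjusted p = 0.0267). Numbers shared between SC and SI clones name different clones and pair nothing.

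Across the 44 clone libraries the 10 genes varied together to unequal degrees. Pearson r of log2(RPKM + 1) over the 45 pairs of genes ran from -0.08 to 0.89, with a median of 0.63, and each pair shares its libraries and its clones. Cldn3 and Cldn4 had the highest (0.89), followed by Cdh1 with Cldn7 (0.88) and Cdh1 with Epcam (0.86). Epcam with Esrp1, Esrp1 with Grhl2, Dsp with Ocln and Cdh1 with Esrp1 were each at 0.85. Dsp with Grhl2 and Dsp with Cldn6 were below 0 (-0.08 and -0.07). Among 9389 other genes, those most like a member over all 47 libraries were Spint2, a protease inhibitor of epithelia, for Epcam (r = 0.98), Kcnk1 for Cdh1 (0.96), Vsig10 for Cldn3 (0.97) and Mtap7 for Esrp1 (0.96). These values hold the 3 feeders, where all 10 members are near 0.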

How the data were processed

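The authors' deposited table gives 1 value per gene and library, which was read as RPKM because each value multiplied by gene length sums to a like total in every library (0.788 to 0.998 over 20750 genes, in gigabases). The submitters' processing notes name CASAVA 1.8 and mm9; the counting rule, the annotation and the use of strand are not stated there. mRNA libraries were made with Illumina TruSeq, per the labels' protocols. Neither read counts nor replicate cultures of a clone were used here, so p-values measure the spread between these clones only.

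A gene was tested on log2(RPKM + 1) if it reached 1 RPKM in a number of libraries no smaller than the smaller group. The test was limma 3.58.1 in R 4.3.3 (lmFit, and eBayes with a trend), using the 2 groups compared, or 4 groups for a difference of changes. Benjamini-Hochberg adjustment ran over all genes tested, with a threshold of 0.05. The added 1 RPKM makes changes of low genes look smaller than they are. There were 21 comparisons, and those that use the same feeder, d21 or d23 libraries are not independent. Days with and without doxycycline follow the sample characteristics. Alternatives were a pseudocount of 0.1, no filter, rescaling by median ratios, the clone as a block and 1 fit over all 12 groups. Each clone or feeder library was also left out in turn, a clone with its libraries in all groups compared. Median-ratio rescaling moved the median of all genes by up to 0.15 (log2), and changes are read relative to that. Clone titles pair the times within a class, and deviations of the same clone correlated at -0.36 to 0.92 over 40 pairs, 32 of them highest with their own clone. Only 1 of 4 pairs was so in SI at d21 against d14, which held the lowest r, and 2 of 4 in SC at d27 against d21. The fit was tested on simulated data with 200 changed genes. Python 3.11.15, pandas 2.3.3 and matplotlib 3.10.9 made the summaries and plots.

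The 10 genes, the gene lists and the markers were chosen with earlier results of these data known. Genes of the lists were named where they had the lowest adjusted p of a list in a comparison, up to 2 per list, and a few for their role; the genes most alike were the 3 with the highest Pearson r among genes averaging 5 RPKM or more. GRCm38.p6 promoter windows come from RefSeq and were not used to place reads. The result for 1 listed gene is not reported here.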

Additional observations from a re-analysis of the deposited data

Results flagged for a closer look

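In 9 of 110 sets of 4 clones, 1 clone lay far from the other 3 (Dixon's test at the 95% level), where chance gives about 1 in 20. SC2 as iPS cells was low for Cdh1 (28.07 RPKM) and for Cldn3 (0.57 RPKM), and its fibroblast marker sum was the highest of the iPS libraries (1357 RPKM against 609 to 720 RPKM in the others). SI3 was low for Epcam at d22 (13.41 RPKM). SC3 was high for Cldn6 at d14 (27.89 RPKM) and, at d21, for Cldn7 (17.83 RPKM) and Esrp1 (13.49 RPKM). SC4 was low for Cldn7 at d27 (6.89 RPKM) and high for Grhl2 at d21 (7.17 RPKM). SI4 was high for Esrp1 at d14 (20.21 RPKM).

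The d23 against d21 change of Esrp1 differed between SC and SI in the fit with the clone block, by 0.98 on the log2 scale (SE 0.25, limma, adjusted p = 0.0339), and not without the block (adjusted p = 0.430). Esrp1 was lower at d23 in 4 of 4 SI clones and in 2 of 4 SC clones.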

How the results depend on the processing

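Over 119 results on single genes and all alternatives, 1102 values kept their direction and their side of the threshold, 55 lost the call, 62 gained one and 36 changed sign. Counts below are of the 10 genes called, without the comparisons with feeders, which the totals above include. With the clone as a block there were 5 at d21 against d14, 3 at d22, 2 at d23 and 1 at d27 against d21 in SC. In SI there were 7 at d22 and 6 at d23. The block gave 5 for iPS cells against d23 and 1 for the SC minus SI difference at d23. It changed no other call between groups of clones. SC and SI clones of the same number are different clones. With the block and without SI3, an alternative added after seeing the data, 9, 9 and 6 genes were called at d22, d23 and d27 in SI (of all genes 71.4%, 72.2% and 50.3%) and 2 for the difference at d23 (25.0%). Without the filter 1 gene was called in SC at d21, and 0 in SC at d23, in SI at d23 and for iPS cells against d23 and d27. One fit over 12 groups gave 0 in SC at d21 and at d23, and 1 between SC and SI at d23. Rescaling turned Grhl2 in SC at d23 to 0.014 and Esrp1 in iPS cells against d23 to 0.039. The block without SI3 turned Grhl2 in SI at d22 to 0.00101 and the d23 difference to -0.66 for Cdh1 and -0.071 for Cldn7, and a pseudocount of 0.1 turned that of Ocln to 0.054. Leaving out each clone gave 0 to 1 called between SC and SI at d23 and at d27. It gave 1 to 3 in SC at d21, 0 to 2 at d22, 0 to 1 at d23, then in SI 0 to 1 at d21, 0 to 5 at d22, 0 to 7 at d23 and 0 to 4 at d27. For iPS cells it gave 0 to 4 against d23 and 0 to 3 against d27. Signs turned between SC and SI at d23 for Cdh1 (-0.68 to 1.00), Epcam (-0.032 to 1.44), Cldn6 (-0.45 to 1.29) and Cldn7 (-0.42 to 1.05). They turned in SC at d21 for Cdh1 (-0.42 to 0.17), Cldn4 (-0.30 to 0.080), Cldn7 (-0.077 to 0.33) and Esrp1 (-0.22 to 0.25), and at d22 for Cldn7 (-0.19 to 0.27). At d23 in SC they turned for Epcam (-0.31 to 0.055), Esrp1 (-0.00289 to 0.24) and Grhl2 (-0.17 to 0.090), and in SI at d22 for Grhl2 (-0.17 to 0.00101). They turned for Esrp1 in iPS cells against d23 (-0.14 to 0.043) and d27 (-0.051 to 0.16). For the d23 difference they turned for Cdh1 (-0.66 to 0.35), Cldn3 (-0.94 to 0.034), Cldn7 (-0.071 to 0.53), Ocln (-0.29 to 0.041) and Dsp (-0.47 to 0.063). Leaving out a clone lowers the number of samples and dropping the filter raises the number of genes tested, by construction. Other causes were not tested. Values near 0.01 RPKM, the worth of about 1 read in a gene of 1 kb, limit what can be said of feeders.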
